A study of Mus musculus with 10 samples.

Results

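The insulin-like growth factor (IGF) system was examined through 7 IGF binding proteins (Igfbp1 to Igfbp7), the ligand Igf1 and the receptor Igf1r. All probe sets that the platform annotation maps to these 9 genes were taken, which gave 20 of the 22626 probe sets on the array that are not controls, for 9 of the 12393 genes named by a probe set with 1 symbol. Igfbp4 had 6 probe sets, Igfbp7 and Igf1 had 3 each, Igfbp5 and Igf1r had 2 each, and Igfbp1, Igfbp2, Igfbp3 and Igfbp6 had 1 each. The family was chosen because Igfbp1 was already known to be higher in contralateral kidneys on these same arrays. The members' differences between contralateral and normal kidneys are therefore given as descriptions, without p-values. Their calls in that contrast are only counted beside those of all probe sets.

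IGF1 is a growth factor that signals through the receptor tyrosine kinase IGF1R. The binding proteins hold IGFs in blood and tissue fluid, where they prolong the life of the ligand and limit or redirect its access to the receptor. Igfbp1 is known as the most acutely regulated of them: in liver its transcription is repressed by insulin and induced by fasting, glucocorticoids, amino acid shortage and hypoxia. In the kidney the binding proteins are made by different cells, among them endothelium, mesangium and tubule segments.

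The 10 arrays held kidney RNA of male C57/BLACK6 mice, whose stated age was 7 weeks at a weight near 20 g. The contralateral kidney was the unclamped one of mice whose left renal artery and vein were closed for 45 min under ether, and its removal followed 3 h after flow returned. 4-thiouridine (200 µM), a nucleoside that is built into new RNA, and tritiated cytidine were given into the peritoneum at 1 h and 2 h. Normal mice received the label at 0 h and 1 h and their kidney was removed at 2 h, and no sham operation is described, so that surgery, ether and timing cannot be told apart from the clamping of the other kidney. Each kidney group had 2 arrays of total RNA, 2 of total RNA put through the same amplification as the labelled RNA, and 1 of newly transcribed RNA, the fraction that carried 4-thiouridine. The labels call the repeats biological replicates, without naming the animals.

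The values below are log2 intensities after adding 11.8 to each deposited signal and quantile normalization, unless said otherwise, and levels of different probe sets are not on a common scale. A ± after a difference is its standard error from limma. The number of arrays limits the precision, and in newly transcribed RNA there was 1 array against 1 and so no measure of error. That pair also differed in quality: the contralateral array had a median deposited signal of 18.6 and the normal one of 70.3, against 26.6 to 59.7 on the other 8 arrays. The signal ratio of the 3′ to the 5′ probe sets of Gapdh, which grows as transcripts shorten, was 68.9 on the contralateral and 12.7 on the normal newly transcribed array. In amplified RNA it was 4.39 to 6.23 on contralateral and 4.21 to 5.29 on normal arrays, and in total RNA 1.03 to 1.12 on contralateral and 0.938 to 0.972 on normal arrays. Its part in the differences below was not tested.

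All 9 genes had a promoter window in RefSeq (GRCm38.p6), and Igfbp1 lies beside Igfbp3 on chromosome 11 as Igfbp2 lies beside Igfbp5 on chromosome 1. The 250 bases before the start are shown for Igfbp1, the member with the largest difference between the kidneys in every preparation, for its neighbour Igfbp3 and for Igfbp5, whose more intense probe set was lower in contralateral kidneys. They are written 5′ to 3′ along the gene. The capitals mark CAAAACA, the core of the element through which FoxO proteins act on the human gene, and ATTAAC, the reverse complement of a core bound by HNF1 proteins.
Igfbp1, chr11:7197537-7197786, plus strand: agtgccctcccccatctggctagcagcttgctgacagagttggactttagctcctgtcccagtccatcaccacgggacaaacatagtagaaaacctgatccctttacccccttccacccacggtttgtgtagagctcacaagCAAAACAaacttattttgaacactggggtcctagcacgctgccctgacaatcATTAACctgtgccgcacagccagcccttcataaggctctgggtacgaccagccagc
Igfbp3, chr11:7213924-7214173, minus strand: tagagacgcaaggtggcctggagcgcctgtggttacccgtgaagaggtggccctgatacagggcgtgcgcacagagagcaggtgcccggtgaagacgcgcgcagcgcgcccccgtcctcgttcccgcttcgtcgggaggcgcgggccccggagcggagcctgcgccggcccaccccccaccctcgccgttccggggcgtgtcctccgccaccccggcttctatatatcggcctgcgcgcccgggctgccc
Igfbp5, chr1:72874866-72875115, minus strand: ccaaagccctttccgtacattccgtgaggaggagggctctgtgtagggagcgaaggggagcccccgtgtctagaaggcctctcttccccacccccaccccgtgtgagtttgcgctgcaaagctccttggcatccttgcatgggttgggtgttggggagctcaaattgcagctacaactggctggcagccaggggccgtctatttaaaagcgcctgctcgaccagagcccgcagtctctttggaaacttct
Each motif was searched on both strands. CAAAACA was in 1 of the 10 windows of the family, that of Igfbp1, and in 5.56% of 32851 windows of all genes. The HNF1 core, GTTAAT, was also in the Igfbp1 window alone among the 10, and in 6.43% of all windows. GTAAACA, the core that FoxO proteins prefer, was in 0 of the 10 windows and in 3.17% of all. AGAACA, a core of glucocorticoid receptor sites, was in the window of Igfbp2 and in 16.1% of all. ACGTG, the core of sites for hypoxia-inducible factors, was in the windows of Igfbp2 and Igfbp7 and in 16.6% of all, and the TATA box core TATAAA was in those of Igfbp4 and Igfbp6 and in 12.4% of all.

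Igfbp1 was higher in contralateral kidneys in all 3 preparations. In total RNA its probe set 1418918_at stood at 9.48 and 9.68 in contralateral kidneys, against 7.69 and 7.66 in normal kidneys. In amplified RNA it stood at 9.64 and 9.55 in contralateral kidneys, against 7.47 and 7.48 in normal kidneys. Newly transcribed RNA gave 10.30 in the contralateral kidney, against 7.81 in the normal one. No contralateral array reached down to a normal one, and the gap between the kidneys was many times the distance between repeats. The contralateral level was 3.73-fold the normal one in total RNA (log2 difference 1.90 ± 0.11), 4.34-fold in amplified RNA (2.12 ± 0.11) and 5.58-fold between the 2 newly transcribed arrays. Ordered by level, the contralateral newly transcribed array came first, then contralateral amplified RNA (mean 9.59) and contralateral total RNA (mean 9.58), whose arrays overlapped. The normal newly transcribed array, normal total RNA (mean 7.68) and normal amplified RNA (mean 7.47) followed in that order.

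**Figure D1:**
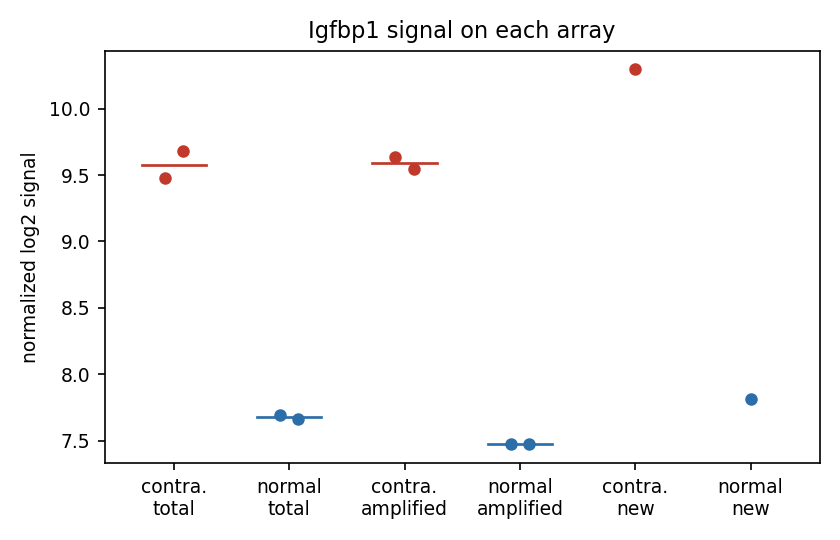
Igfbp1 level on each of the 10 arrays, as normalized log2 intensity, by RNA preparation, with contralateral kidneys left of normal kidneys. Points are arrays and lines are means of 2 arrays. All 5 contralateral arrays lie at 9.48 or above and all 5 normal arrays at 7.81 or below.

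The deposited signals, before any normalization here, showed the same order within each preparation. They were 573.2 and 739.2 in contralateral total RNA, against 234.9 and 234.2 in normal total RNA. Amplified RNA gave 607.9 and 1014.3 in contralateral kidneys, against 173.6 and 184.5 in normal kidneys. Newly transcribed RNA gave 623.8 in the contralateral kidney, against 385.2 in the normal one, so the gap between those 2 arrays was narrower before the dimmer contralateral array was put on a common scale. Over all preparations together the log2 difference was 2.10 ± 0.13, or 4.30-fold.

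The probe sets whose levels followed Igfbp1 most closely over the 10 arrays were those of Cdkn1a, a cyclin-dependent kinase inhibitor (Pearson r = 0.991), and of Arg2, the mitochondrial arginase (0.987). Fkbp5, a glucocorticoid-induced co-chaperone of the glucocorticoid receptor (r = 0.978), Mt2, a metallothionein (0.969), and Lox, the collagen cross-linking enzyme (0.959), came next. Over the 8 arrays without newly transcribed RNA the leading 3 were the same, followed by Osmr, the oncostatin M receptor, and Noct, a deadenylase-like protein. These values describe likeness over arrays that share the kidney contrast and carry no test. Among the other tested probe sets of the family r with Igfbp1 over 10 arrays lay between -0.68 for Igfbp5 (1452114_s_at) and 0.53 for Igfbp6.

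**Figure D2:**
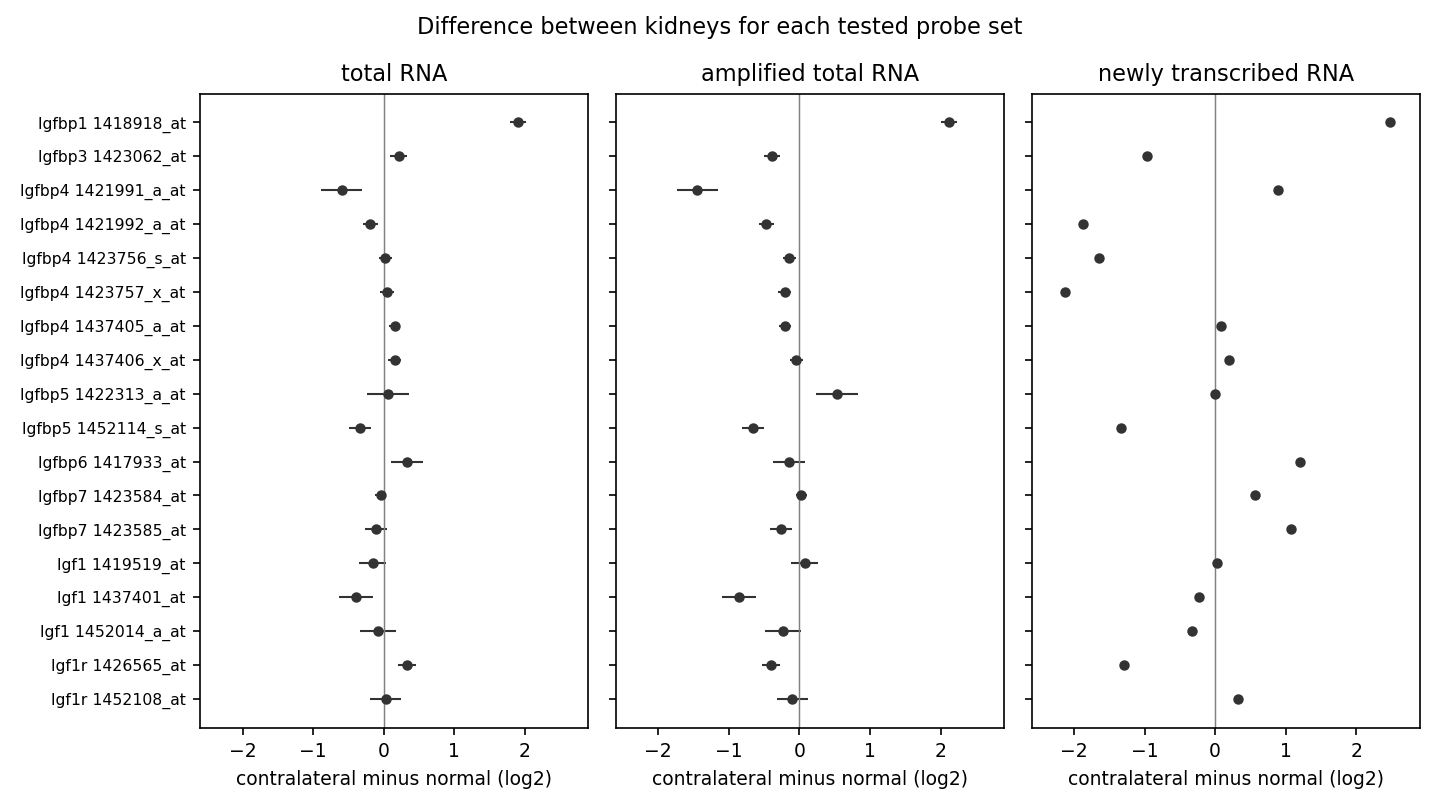
Contralateral minus normal log2 difference of each tested probe set of the family, in total, amplified and newly transcribed RNA. Bars are standard errors from limma in the 2 replicated preparations, and newly transcribed RNA has 1 array a kidney and no bar. Igfbp1 lies near 2 in each preparation while the other probe sets lie on both sides of 0, more widely spread in newly transcribed RNA. In amplified RNA 14 of the 18 lie below 0, against 47.4% of all probe sets tested.

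Igfbp3, the main carrier of IGFs in serum, did not share the pattern of its neighbour Igfbp1. Total RNA gave 9.01 and 9.0 in contralateral kidneys, against 8.84 and 8.74 in normal kidneys, a difference of 0.21 ± 0.12. In amplified RNA the order was turned, with 9.34 and 9.07 in contralateral kidneys, against 9.54 and 9.64 in normal kidneys (-0.39 ± 0.12). The newly transcribed arrays stood at 7.41 in the contralateral kidney, against 8.38 in the normal one. On the normalized scale the groups did not overlap in either replicated preparation, in opposite directions. The deposited signals did not turn, since contralateral kidneys were lower in total RNA too. They were 416.6 and 455.1 in contralateral total RNA, against 520.8 and 502.3 in normal total RNA. The sum over 7 endothelial marker genes, on the normalized linear scale, was 1814 to 1987 in contralateral and 2090 to 2478 in normal total RNA, 2128 to 2236 in contralateral and 1997 to 2139 in normal amplified RNA, and 1747 in contralateral and 1212 in normal newly transcribed RNA. The 7 genes did not move together between the 2 newly transcribed arrays. By 2-fold or more 1 was higher and 2 were lower in the contralateral kidney, and their median log2 difference was 0.02. Of all genes 14.4% were higher and 15.9% lower by that fold. The part of the endothelial sum in the Igfbp3 values was not tested. In such bulk RNA, fewer cells of a type and less RNA per cell cannot be told apart.

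Igfbp5, a binding protein that also attaches to extracellular matrix, was lower in contralateral kidneys by its more intense probe set, 1452114_s_at. Total RNA gave 9.74 and 10.02 in contralateral kidneys, against 10.15 and 10.29 in normal kidneys. Amplified RNA gave 9.15 and 9.59 in contralateral kidneys, against 9.93 and 10.13 in normal kidneys. Newly transcribed RNA gave 9.59 in the contralateral kidney, against 10.92 in the normal one. The kidneys did not overlap in total or amplified RNA, and with 1 array a kidney overlap cannot be judged in newly transcribed RNA. The differences were -0.34 ± 0.15 in total, -0.66 ± 0.15 in amplified and -1.33 in newly transcribed RNA. The dimmer probe set of the same gene, 1422313_a_at, did not show this: its differences were 0.06 ± 0.30 in total RNA, 0.53 ± 0.30 in amplified RNA and 0.00 in newly transcribed RNA.

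The 6 probe sets of Igfbp4, which binds IGFs and is cleaved by the pappalysin protease, did not give a common answer. In total RNA their contralateral minus normal differences ran from -0.60 ± 0.29 (1421991_a_at) to 0.16 ± 0.08 (1437405_a_at). In amplified RNA all 6 were negative, from -1.45 ± 0.29 (1421991_a_at) to -0.04 ± 0.09 (1437406_x_at). The deposited signals of 1421991_a_at were near the floor there, at 13 and 4.3 in contralateral kidneys, against 47.4 and 53.2 in normal kidneys. For 1421992_a_at amplified RNA gave 8.70 and 8.80 in contralateral kidneys, against 9.22 and 9.21 in normal kidneys. The probe sets split furthest in newly transcribed RNA. There 1423757_x_at stood at 9.61 in the contralateral kidney, against 11.74 in the normal one, a difference of -2.13. By contrast 1437405_a_at stood at 11.87 in the contralateral kidney, against 11.78 in the normal one, a difference of 0.09. The same pair of arrays thus gave either a 4.38-fold lower level or nearly the same level for a single gene, by the probe set read.

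**Figure D3:**
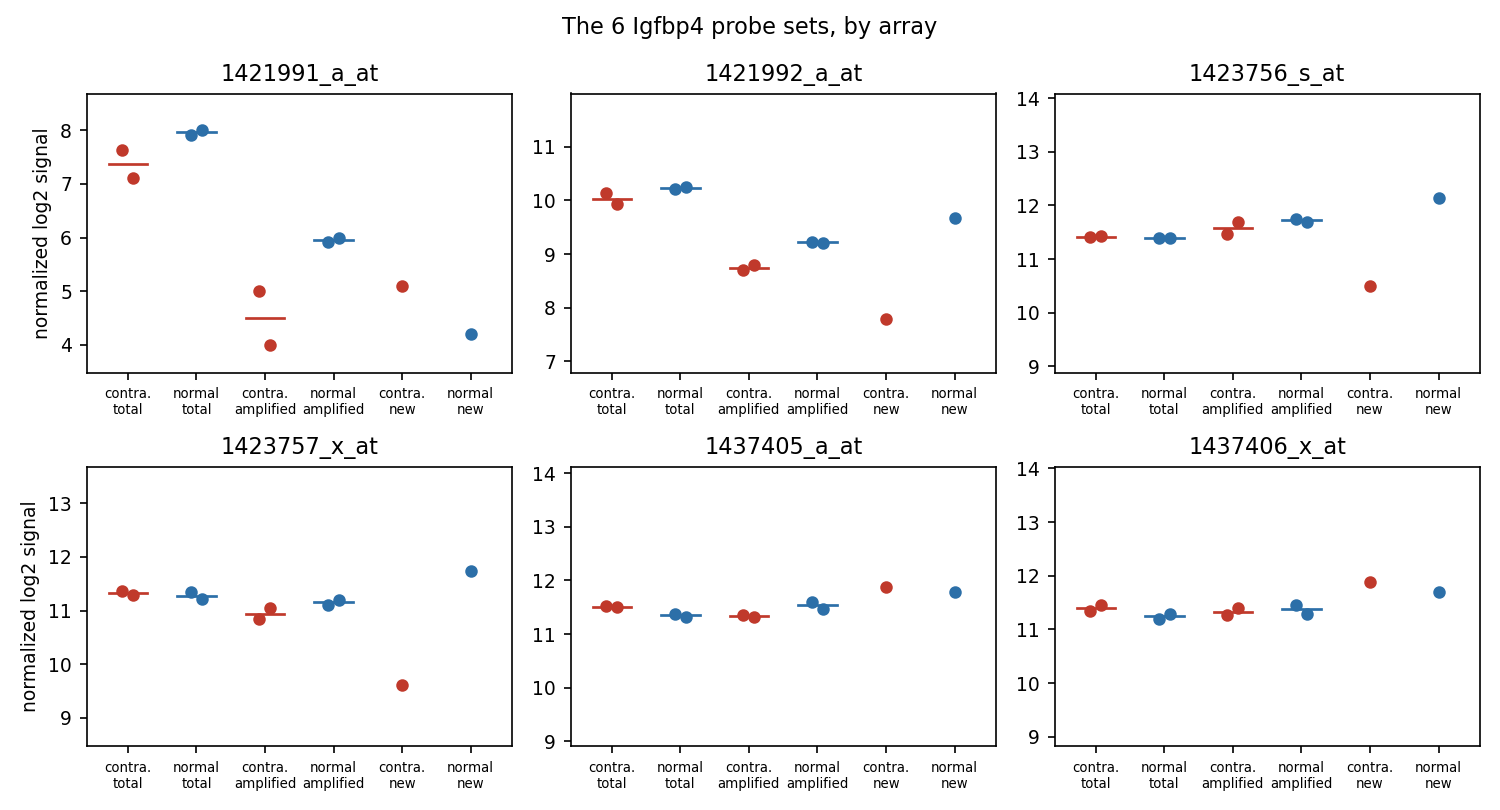
The 6 probe sets of Igfbp4 on each array, as normalized log2 intensity, by RNA preparation, with contralateral kidneys left of normal kidneys. Points are arrays and lines are means of 2 arrays. In newly transcribed RNA the differences range from -2.13 to 0.90 over probe sets of this 1 gene.

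Igfbp6, which prefers IGF2 over IGF1, was dim. Total RNA gave 5.59 and 5.77 in contralateral kidneys, against 5.07 and 5.64 in normal kidneys, and amplified RNA gave 5.39 and 5.55 in contralateral kidneys, against 5.50 and 5.73 in normal kidneys. The kidneys overlapped in both. The newly transcribed arrays stood at 6.62 in the contralateral kidney, against 5.41 in the normal one. Before normalization the order was the reverse, with deposited signals of 36.7 in the contralateral and 48.4 in the normal kidney. The summed level of 6 fibroblast, mural and smooth muscle markers was 3347 on the contralateral and 1081 on the normal newly transcribed array. It was 1833 to 2482 in contralateral and 2128 to 2202 in normal total RNA, and 1759 to 2083 and 2001 to 2191 in amplified RNA. Between the newly transcribed arrays 4 of the 6 were higher and 1, Myh11, was lower by 2-fold or more. Of all genes 14.4% were higher and 15.9% lower by that fold. The part of the marker sum in the Igfbp6 value was not tested.

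Igfbp7, a low-affinity IGF binder abundant in vessel walls, differed little between the kidneys where repeats exist. By 1423584_at, total RNA gave 12.20 and 12.23 in contralateral kidneys, against 12.23 and 12.28 in normal kidneys, and amplified RNA gave 11.28 and 11.38 in contralateral kidneys, against 11.31 and 11.29 in normal kidneys. The kidneys overlapped in both, and the differences were -0.04 ± 0.08 in total and 0.02 ± 0.08 in amplified RNA. Newly transcribed RNA gave 10.93 in the contralateral kidney, against 10.37 in the normal one. The dimmer 1423585_at had a newly transcribed level of 6.64 in the contralateral kidney, against 5.56 in the normal one. For both probe sets the deposited newly transcribed signals ran the other way. They were 1066.9 in the contralateral and 1829.2 in the normal kidney for 1423584_at, and 37.2 and 56.4 for 1423585_at.

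Igfbp2, a binding protein of fetal tissue and of the nervous system, and the third probe set of Igfbp7, 1437804_at, were below the 40th percentile of mean signal and were not tested. The deposited Igfbp2 signal was 16.0 and 21.2 in contralateral total RNA, against 40.8 and 25.7 in normal total RNA. Normalized, the Igfbp2 difference was -0.17 in total RNA, 0.06 in amplified RNA and -0.42 in newly transcribed RNA. For 1437804_at the differences were -0.05 in total, 0.07 in amplified and 0.17 in newly transcribed RNA.

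**Figure D4:**
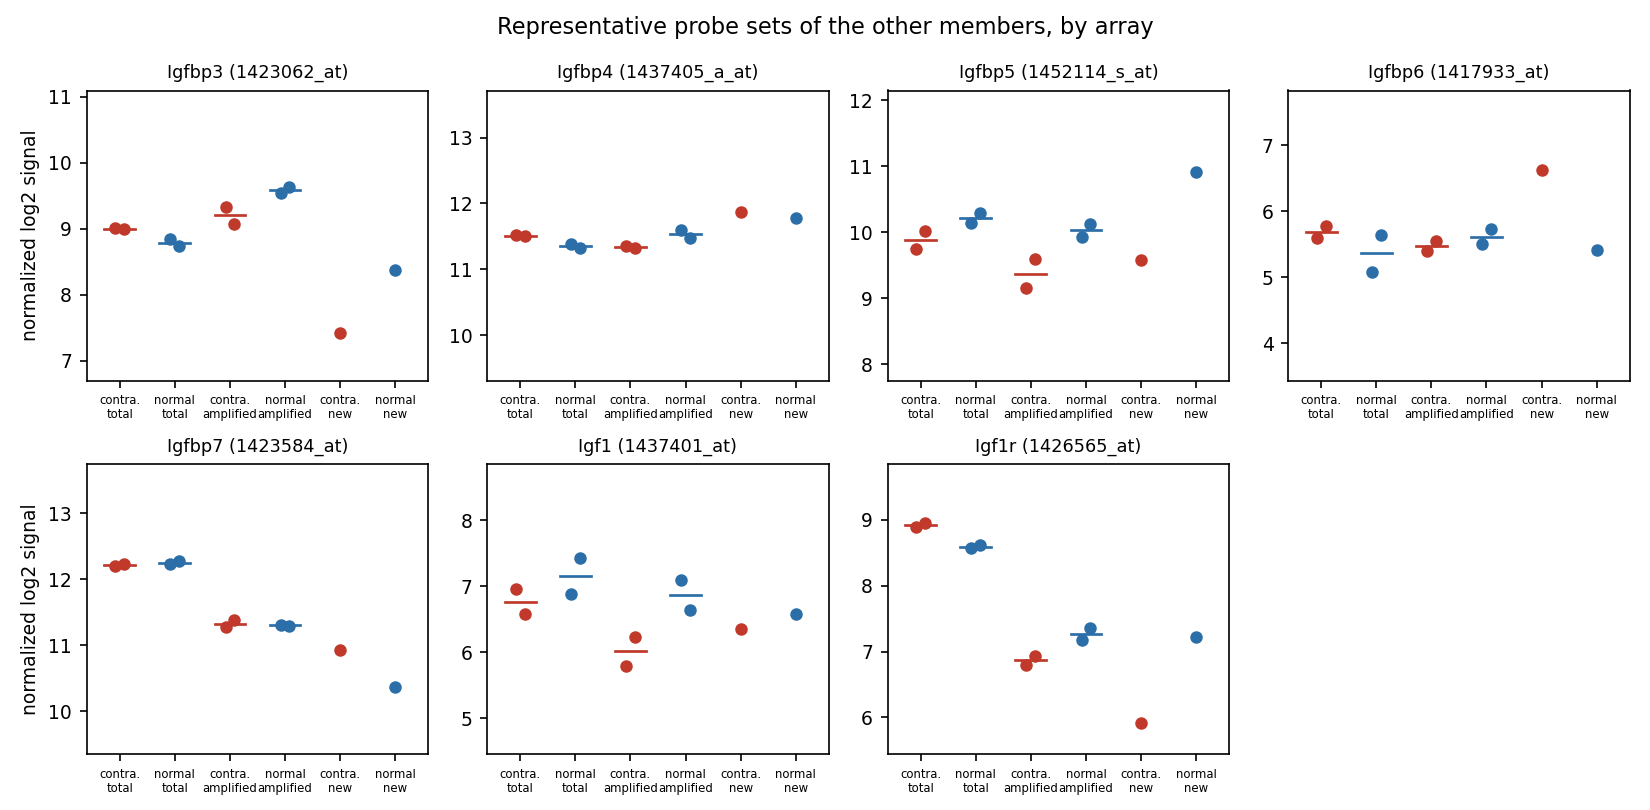
Levels on each array of the brightest probe set of the other genes of the family, as normalized log2 intensity, by RNA preparation, with contralateral kidneys left of normal kidneys. Points are arrays and lines are means of 2 arrays. On this normalized scale Igfbp3 reverses order between total and amplified RNA and Igfbp7 overlaps between the kidneys in both.

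Igf1, the ligand, gave modest signals. By 1437401_at total RNA stood at 6.95 and 6.57 in contralateral kidneys, against 6.88 and 7.43 in normal kidneys, which overlapped. In amplified RNA the level was 5.79 and 6.23 in contralateral kidneys, against 7.09 and 6.64 in normal kidneys, without overlap (-0.85 ± 0.24). The other Igf1 probe sets did not repeat that size, with amplified differences of 0.07 ± 0.19 (1419519_at) and -0.24 ± 0.25 (1452014_a_at).

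Igf1r, the receptor, was measured by a bright and a dim probe set. The bright one, 1426565_at, stood in total RNA at 8.89 and 8.95 in contralateral kidneys, against 8.57 and 8.61 in normal kidneys. In amplified RNA it stood at 6.80 and 6.93 in contralateral kidneys, against 7.18 and 7.36 in normal kidneys. Newly transcribed RNA gave 5.92 in the contralateral kidney, against 7.21 in the normal one. Once normalized, the contralateral kidney was thus the higher one in total RNA (0.33 ± 0.13) and the lower one in amplified RNA (-0.40 ± 0.13). The deposited signals in total RNA overlapped, at 382.9 and 439.9 in contralateral kidneys, against 435.6 and 455.8 in normal kidneys. The dim probe set 1452108_at overlapped between the kidneys in both replicated preparations, with differences of 0.03 ± 0.22 in total and -0.10 ± 0.22 in amplified RNA.

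Across the family, 18 of the 20 probe sets passed the filter and were tested, and they cover 8 of the 9 genes. With an adjusted p under 0.05 (limma, Benjamini-Hochberg over all 13575 probe sets tested), 1 of the 18, Igfbp1, was called over preparations, where 0.442% of all probe sets were called and 0.383% were called higher. In total RNA 1 of 18 was called, again Igfbp1, against 1.91% of all and 1.58% called higher. In amplified RNA 5 of 18 were called, with Igfbp1 higher and Igfbp5 (1452114_s_at), Igfbp4 (1421991_a_at and 1421992_a_at) and Igf1 (1437401_at) lower, against 10.3% of all, with 4.1% higher and 6.22% lower. Without either normal amplified array that count was 1, and without contralateral amplified replicate 1 it was 3. In newly transcribed RNA 8 of 18 differed by 2-fold or more, 3 of them higher and 5 lower, and 32.8% of all did, with 14.4% higher and 18.5% lower. The median difference in amplified RNA was -0.21 over the 18 probe sets and 0.02 over all, and in total RNA it was 0.03 over the 18 and -0.01 over all. Because the family was chosen on this contrast, nothing is read from these counts.

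Amplified total RNA was then compared with total RNA over both kidneys, a contrast of preparation that the choice of the family did not use. It had 4 arrays against 4. By this test 4 of the 18 probe sets were lower in amplified RNA and 0 were higher, where 38.4% of all probe sets were called in either direction, 20.7% higher and 17.6% lower. Igfbp7 (1423584_at) averaged 11.32 ± 0.04 in amplified RNA and 12.23 ± 0.03 in total RNA (SD, n = 4 each), a difference of -0.92 ± 0.12 (adjusted p = 0.000293 by limma). Igf1r (1426565_at) averaged 7.07 ± 0.25 in amplified RNA and 8.76 ± 0.19 in total RNA (SD, n = 4 each), a difference of -1.69 ± 0.24 (limma adjusted p = 0.00061). The remaining calls were on Igfbp4, where 1421991_a_at fell by 2.43 ± 0.37 (limma adjusted p = 0.000779) and 1421992_a_at fell by 1.15 ± 0.25 (limma adjusted p = 0.00523). The other Igfbp4 probe sets lay between -0.26 and 0.25. These 4 probe sets kept their call in every alternative that tested them. Without the contralateral or the normal newly transcribed array, or both, 10 of the 18 were called.

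Igfbp1 itself showed no difference past the threshold between amplified and total RNA. It averaged 8.53 in amplified RNA and 8.63 in total RNA, a difference of -0.09 ± 0.14 (limma adjusted p = 0.63) that turned to 0.19 when arrays were centred on their median in place of quantile normalization. Igfbp3 stood at 9.40 ± 0.25 in amplified RNA and 8.90 ± 0.13 in total RNA (SD, n = 4 each), and its difference of 0.50 ± 0.20 did not pass (limma adjusted p = 0.0685).

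**Figure D5:**
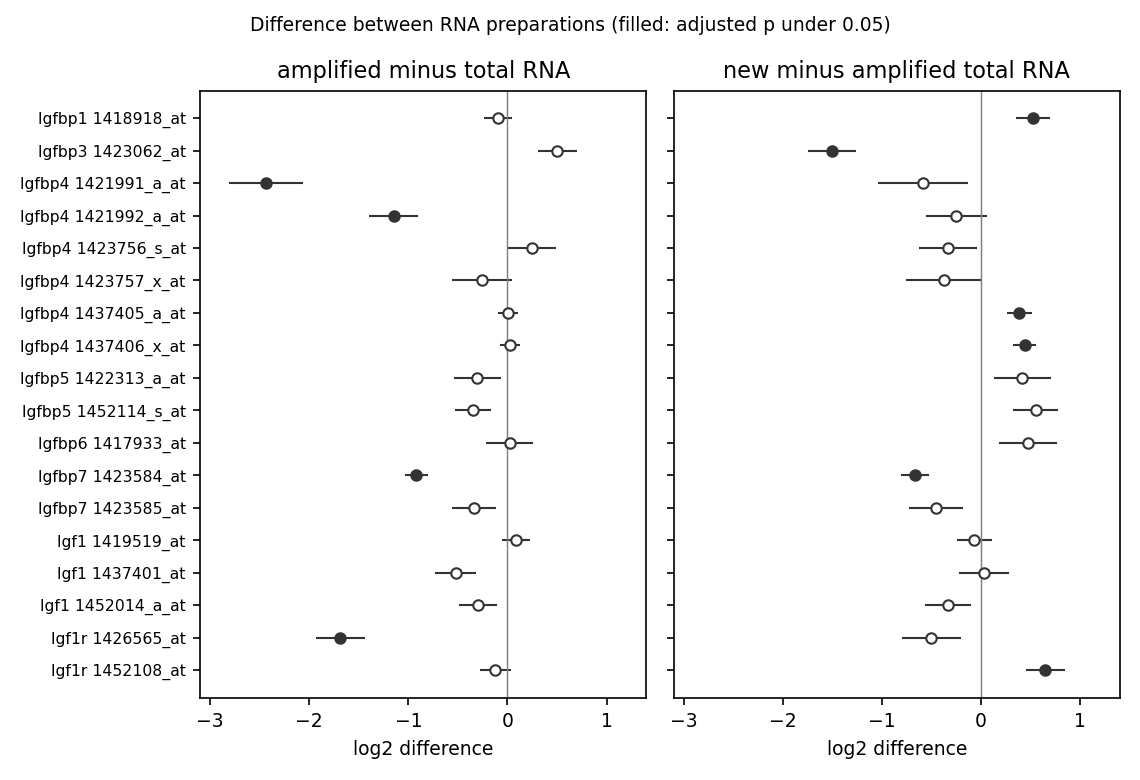
Log2 differences of each tested probe set of the family between amplified and total RNA and between newly transcribed and amplified RNA, both over the 2 kidneys, with standard errors from limma. Filled points passed an adjusted p of 0.05. Igfbp3 and Igfbp7 (1423584_at) lie below 0 in newly transcribed against amplified RNA, at -1.50 and -0.66.

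Newly transcribed RNA was set against amplified total RNA, which went through the same amplification, over both kidneys with 2 arrays against 4. This contrast shares the amplified arrays with the one before it. Of the 18 probe sets 6 were called, 4 higher and 2 lower, where 28.6% of all probe sets were called, 11.9% higher and 16.7% lower. Igfbp3 stood at 7.41 and 8.38 in newly transcribed RNA, below all 4 amplified arrays, which ran from 9.07 to 9.64. Its difference was -1.50 ± 0.24 (limma adjusted p = 0.00167). Igfbp7 (1423584_at) stood at 10.93 and 10.37 in newly transcribed RNA, against 11.28 to 11.38 in amplified RNA, a difference of -0.66 ± 0.14 (limma adjusted p = 0.00702). Both lower calls held in all 17 alternatives that gave a value.

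The 4 higher calls were less stable. Igfbp1 was 0.52 ± 0.17 higher in newly transcribed than in amplified RNA (limma adjusted p = 0.0452), with 10.30 and 7.81 in newly transcribed RNA, against 7.47 to 9.64 in amplified RNA. That call was lost without any single array other than the normal newly transcribed one (adjusted p up to 0.157 by limma), and the difference was 0.29 without the contralateral newly transcribed array. Igf1r (1452108_at), whose mean signal lay at percentile 40.19, just above the filter, was higher by 0.65 ± 0.20 (limma adjusted p = 0.0328), and Igfbp4 was higher by 0.39 ± 0.13 (1437405_a_at, adjusted p = 0.0421) and 0.44 ± 0.12 (1437406_x_at, limma adjusted p = 0.0222). The Igf1r call held in 7 of the 13 alternatives that tested it, and the Igfbp4 calls held in 5 (1437405_a_at) and 11 (1437406_x_at) of 17. The count of 6 became 3 without normal total replicate 1 or contralateral amplified replicate 2, 2 without contralateral amplified replicate 1 or normal amplified replicate 2, 9 without the contralateral newly transcribed array and 10 without the normal one.

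Whether the contralateral difference itself depended on amplification was tested as an interaction, the difference in amplified RNA minus that in total RNA. It is built from the kidney differences on which the family was chosen, so it is not wholly independent of that choice. Igf1r (1426565_at) was the 1 of 18 probe sets called, at -0.73 ± 0.18 (limma adjusted p = 0.0466), where 4.46% of all probe sets were called and 3.82% were called lower. The call held in 7 of 18 alternatives. Without any single total array or either normal amplified array the count was 0, and without contralateral amplified replicate 1 it was 2. The Igf1r value lay between -0.82 and -0.64 over the arrays left out, and it also missed the threshold without contralateral amplified replicate 1 (-0.67, limma adjusted p = 0.0839). For Igfbp3, whose direction turned on the normalized scale, it was -0.60 ± 0.17 and did not pass (limma adjusted p = 0.0789). For Igfbp1, the gene that brought the family into view, its value is given without a p, at 0.22 ± 0.16.

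Other genes of the pathway were followed through lists of 68 genes. Of these 59 were on the array, and 45 passed the filter with 1 probe set a gene. The lists, those of markers below included, were drawn up with earlier results of these data known. Their p-values between the kidneys are therefore no independent test. Between the kidneys over preparations 0 of the 45 passed (limma), where 0.602% of all 8300 genes passed. At an unadjusted p under 0.05 (limma) there were 16. The share of all genes at that looser threshold was not counted, so nothing is read from the 16. In total RNA 2 of 45 rose and 0 fell, where 1.8% of genes passed and 1.41% rose. These were Ptpn1, the phosphatase that acts on the insulin receptor (0.82 ± 0.13, limma adjusted p = 0.0115), and Ccn2, a matrix protein with an IGFBP-like domain (1.04 ± 0.23, limma adjusted p = 0.046). Ptpn1 stood at 9.05 and 8.99 in contralateral kidneys, against 8.12 and 8.28 in normal kidneys, yet its adjusted p was 0.0519 to 0.108 without any single total array. For Ccn2 the adjusted p was 0.105 to 0.263 without a total array and 0.0788 or 0.0792 without a normal amplified one.

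In amplified RNA 3 of the 45 rose and 3 fell, where 9% of genes passed, 4.82% higher and 4.18% lower. Irs1, the docking protein of the insulin and IGF1 receptors, stood at 9.41 and 9.44 in contralateral kidneys, against 8.69 and 8.74 in normal kidneys (0.71 ± 0.11, limma adjusted p = 0.00221). Mtor, the kinase of the growth pathway, stood at 10.52 and 10.63 in contralateral kidneys, against 10.04 and 9.88 in normal kidneys (0.62 ± 0.10, limma adjusted p = 0.00245). Both kept their call in all 18 alternatives. Ccn1 (0.76), a matrix protein related to Ccn2, missed the threshold without contralateral amplified replicate 1 (limma adjusted p = 0.118) or normal amplified replicate 2 (limma adjusted p = 0.212). The lower genes were Esm1 (-0.76), Crim1 (-1.13) and Pik3ca (-0.45), and without any single amplified array each either missed the threshold or, for Esm1, fell under the filter, except that Crim1 kept its call without contralateral amplified replicate 2. Crim1 was at -0.50 without contralateral amplified replicate 1, and it also missed the threshold without any single total array, as Esm1 did without either contralateral total one. On the newly transcribed arrays Irs1 went the other way, at 9.20 in the contralateral kidney, against 10.67 in the normal one. There 9 of the 45 were higher and 10 lower by 2-fold or more, and 30.3% of all genes were past that fold, 14.4% higher and 15.9% lower. Among the IGFBP proteases and stanniocalcins Htra1 (1.53) and Stc2 (1.12) were higher, and among IGFBP-like proteins Esm1 (-2.82) and Crim1 (-1.58) were lower and Ccn1 (1.72) was higher. The signalling genes with the largest differences were Pdpk1 (-1.95), Grb10 (-1.86) and Pik3ca (-1.70). In that list, however, 5 were higher and 5 lower, and the median difference was 0.56, against 0.06 for all genes. Mtor, among the higher ones, stood at 10.75 in the contralateral kidney, against 9.33 in the normal one. Socs2 (-1.62) and Cish (1.45), feedback inhibitors of growth hormone signalling, went opposite ways, and the transcription factors Nr3c1 (-2.14) and Hif1a (-1.46) were lower.

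Of the 10 transcription factors known to act on Igfbp1, 8 were on the array and 6 were tested, and 0 were called by limma between the kidneys over preparations, in total RNA or in amplified RNA. At an unadjusted p under 0.05 (limma) there were 3, 2 and 3 in these contrasts, and the share of all genes there was not counted. Foxo3 was nearest to the threshold on adjusted p in total RNA (1.01 ± 0.24, limma adjusted p = 0.0644). In newly transcribed against amplified RNA 4 of these 6 were higher, where 13.1% of all genes were higher and 30% were called. Foxo1 stood at 10.48 and 9.91 in newly transcribed RNA, against 8.23 to 8.66 in amplified RNA (1.72 ± 0.16, limma adjusted p = 0.000224). Hnf4a, a tubule and liver transcription factor, stood at 11.29 and 11.39 in newly transcribed RNA, against 10.50 to 10.69 in amplified RNA (0.76 ± 0.12, limma adjusted p = 0.0018). Foxo3 (1.64 ± 0.38, limma adjusted p = 0.0111) and the glucocorticoid receptor Nr3c1 (1.07 ± 0.35, limma adjusted p = 0.0434) were the others, and Nr3c1 was at 0.21 without the normal newly transcribed array. Nr3c1 also lost its call without either contralateral total array, normal total replicate 1, contralateral amplified replicate 2 or either normal amplified array. Grb2 (1.13), an adaptor of growth factor receptors, was also higher and kept its call in all 17 alternatives. Jak2 (0.73), the kinase of the growth hormone receptor, was higher too but missed the threshold without the contralateral newly transcribed array (limma adjusted p = 0.0509). Ccn1 (0.82) was higher but was at 0.27 without that array, and it kept its call in 7 of 17 alternatives. It missed the threshold without any single array other than normal total replicate 1 and the normal newly transcribed array. Over the whole 45, 10 were higher and 2 lower in this contrast, where 16.9% of all genes were lower.

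In amplified against total RNA 5 of the 45 rose and 7 fell, where 37.8% of genes passed, 22.9% higher and 14.9% lower. Among IGFBP-like proteins Crim1 (-2.15) fell and Ccn2 (0.91) rose, and among signalling genes Tsc2 (-1.17), a brake on mTOR, and Ptpn1 (-1.16) fell. These 4 kept their call in every alternative that tested them. Esm1 (1.06), Irs2 (-0.98), the ligand Igf2 (-0.67) and Foxo1 (0.39) also passed. Esm1 kept its call in 6 of 13 alternatives, Irs2 in 13 of 17, Igf2 in 13 of 17 and Foxo1 in 9 of 18. Foxo1 missed the threshold without any single total or amplified array, and Irs2 without either contralateral total or either contralateral amplified array. Igf2 missed it without either normal total array, contralateral amplified replicate 2 or normal amplified replicate 1. Esm1 missed it without contralateral total replicate 2, either normal total array or either contralateral amplified array, and it fell under the filter without either normal amplified array or the normal newly transcribed one.

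The interaction called 4 of the 45, each with a lower contralateral difference in amplified than in total RNA, where 2.72% of genes passed and 1.99% did so in that direction. They were Crim1 (-2.31 ± 0.45, limma adjusted p = 0.0134), Foxo3 (-1.47 ± 0.34, limma adjusted p = 0.0345), Irs2 (-1.20 ± 0.30, limma adjusted p = 0.0465) and Ptpn1 (-0.998 ± 0.19, limma adjusted p = 0.0105). The calls were kept in 12 of 17 alternatives for Crim1, 10 of 18 for Foxo3, 7 of 17 for Irs2 and 16 of 18 for Ptpn1. Each missed the threshold without certain single arrays. Without contralateral total replicate 1 the adjusted p by limma was 0.0628 for Crim1, 0.0738 for Foxo3, 0.128 for Irs2 and 0.0512 for Ptpn1. Without normal amplified replicate 2 it was 0.0716 for Crim1, 0.141 for Foxo3 and 0.0711 for Ptpn1. Crim1 also missed the threshold without normal total replicate 2 or normal amplified replicate 1. Foxo3 did so without contralateral total replicate 2, normal total replicate 2, contralateral amplified replicate 2 or normal amplified replicate 1. Irs2 did so without any total array, either contralateral amplified array or normal amplified replicate 1.

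Markers of the kidney's own segments were also summed in each group. The summed level of 7 proximal tubule markers was 14910 to 14940 in contralateral and 15540 to 15860 in normal total RNA, and 12640 to 13070 in contralateral and 13910 to 14060 in normal amplified RNA. In newly transcribed RNA it was 7509 in the contralateral and 9740 in the normal kidney. The sum of 3 collecting duct markers was 1001 to 1227 in contralateral and 756.3 to 917.5 in normal total RNA, 1494 to 1660 in contralateral and 1219 to 1533 in normal amplified RNA, and 1065 in contralateral and 936.9 in normal newly transcribed RNA. The proximal tubule sum was thus lower in contralateral kidneys without overlap in total and amplified RNA, and the collecting duct sum was higher in total RNA without overlap. The sum of 5 thick limb and distal tubule markers was 9177 to 9453 in contralateral and 8701 to 9163 in normal total RNA. In amplified RNA it overlapped, at 8603 to 9420 in contralateral and 8697 to 9467 in normal kidneys. The sum of 4 podocyte markers overlapped between the kidneys in both preparations. By limma 2 markers passed between the kidneys in amplified RNA, 1 of 7 proximal tubule and 1 of 3 collecting duct markers, where 9% of all genes passed. In the other marker lists 0 passed there, and 0 markers of these segments passed over preparations or in total RNA. Lrp2, the proximal tubule receptor megalin, was lower (-0.59 ± 0.13, limma adjusted p = 0.0148), though at -0.42 without normal amplified replicate 1 (limma adjusted p = 0.153). Scnn1g, a subunit of the collecting duct sodium channel, was higher (0.47 ± 0.13, limma adjusted p = 0.0456), and it missed the threshold without any total array, contralateral amplified replicate 2 or either normal amplified array. Not every marker of these 2 lists went the same way. In amplified RNA Aqp3, of the collecting duct list, stood at 8.80 and 8.29 in contralateral kidneys, against 8.93 and 9.08 in normal kidneys. Cubn, of the proximal tubule list, stood at 10.42 and 10.68 in contralateral kidneys, against 10.29 and 10.35 in normal kidneys. The part of these marker differences in the differences of the family was not tested.

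Liver is the classical source of Igfbp1. The 6 hepatocyte markers on the array summed to 4178 to 4452 in contralateral and 4296 to 4737 in normal total RNA, to 3397 to 3491 in contralateral and 3276 to 3754 in normal amplified RNA, and to 4380 in contralateral and 2839 in normal newly transcribed RNA. That sum rests on Cyp2e1 and Ttr, with deposited signals of 1874.5 to 3445.2 and 514.3 to 2238.9 over the 10 arrays. Cyp2e1 is also known from mouse kidney tubules. The other 4 were low, with deposited signals of 17 to 61 for Alb, which encodes albumin, 8.2 to 51.2 for Cps1, 7.6 to 29.2 for Apoa1 and 4.5 to 48.9 for Tat. No marker of any list was at 0 on any array. The adipocyte sum, over 3 markers, was 172.6 to 219.7 in contralateral and 124.3 to 181.4 in normal total RNA, 172.3 to 177.7 in contralateral and 85.3 to 135 in normal amplified RNA, and 486 in contralateral and 59.97 in normal newly transcribed RNA. Its part in the differences of the family was not tested.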

How the data were processed

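The deposited table gives each probe set a linear intensity on every array (0 to 6746.9, 22690 probe sets, 64 of them controls), with no detection calls, and the authors' summary method is not given in the sources used here. Intensities were put on the log2 scale after adding 11.8, their 25th percentile, to the deposited values, and quantile normalized. Probe sets in the lowest 40% of mean signal were left out, which left 13575. limma 3.58.1 (R 4.3.3; lmFit, eBayes with an intensity trend) was fitted to all 10 arrays, with kidney and preparation as additive terms for contrasts over preparations and of preparation (6 residual degrees of freedom), and with 6 group means for contrasts within a preparation and the interaction (4). p-values were adjusted by Benjamini-Hochberg at 0.05, and the procedure was tested on simulated data. Of the probe sets that are no controls, 20380 have 1 gene symbol, 691 several and 1555 none; none with several held a member of the family, and all 20 Entrez numbers matched RefSeq. For genes in the lists the probe set with the highest mean signal was used. All probe sets of the members are named. List genes are named where they were called, at most 3 per list and contrast by size of change, and Hnf4a beside them; for lists without a call the rule was to name the 2 genes with the smallest p, but these are given by counts, with Foxo3 in total RNA named. Genes like Igfbp1 are the 5 with the highest Pearson r. The members and lists were chosen with earlier results of these data known. Because the labels do not name animals, p-values measure only the spread between these arrays. Alternatives were other pseudocounts (3 and 50), median centring, other filters, no trend, a replicate block, and leaving out arrays.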

Additional observations from a re-analysis of the deposited data

Results flagged for a closer look

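The contralateral minus normal difference of Igf1r (1426565_at) differed between amplified and total RNA by -0.73 in the interaction test, with 0.33 ± 0.13 in total RNA and -0.40 ± 0.13 in amplified RNA. Its 1 newly transcribed pair of arrays gave -1.29, opposite in sign to total RNA, where the deposited signals overlapped between the kidneys. Igfbp4 (1423756_s_at) gave -1.64 in newly transcribed RNA, against 0.03 ± 0.09 in total RNA, a difference smaller than its error although both contralateral arrays lay above both normal ones. Igfbp7 (1423585_at) gave 1.07 in newly transcribed RNA, against -0.26 ± 0.16 in amplified RNA, where both contralateral arrays lay below both normal ones. Its deposited newly transcribed signals ran opposite to the 1.07, at 37.2 in the contralateral and 56.4 in the normal kidney. The last 3 differences between preparations were not tested, since newly transcribed RNA had 1 array a kidney.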

How the results depend on the processing

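Igfbp1 stayed higher in contralateral kidneys in all 18 alternatives. With a pseudocount of 50 its log2 difference was 1.716 in total RNA, 1.898 in amplified RNA and 1.903 over preparations, and with median centring it was 2.218 in amplified RNA. Leaving out 1 array at a time gave 1.801 to 2.008 in total RNA, 2.057 to 2.157 in amplified RNA and 2.009 to 2.172 over preparations. Counts of called probe sets of the family moved more. In amplified against total RNA the 4 became 10 without both newly transcribed arrays (4 to 10 without 1 array). For the interaction the 1 became 0 with median centring, no filter, no intensity trend or a replicate block (0 to 2 without 1 array). Between the kidneys in amplified RNA the 5 became 3 with median centring, 3 with no filter and 2 with no trend (1 to 5 without 1 array). In newly transcribed RNA the 8 past 2-fold became 5 with a pseudocount of 50. In newly transcribed against amplified RNA the 6 became 3 with median centring, 2 with no filter and 2 with the replicate block (2 to 10 without 1 array). Deviations of same-numbered total and amplified arrays correlated at 0.0998 (contralateral) and 0.0971 (normal), and between kidneys at -0.0701 in total and 0.0417 in amplified RNA. Such values cannot settle whether same-numbered arrays share an animal, since differences between arrays could hide a shared animal. Signs turned for probe sets that were not called. With median centring Igf1 (1437401_at) was at -0.003 in newly transcribed against amplified RNA and Igfbp1 at 0.189 in amplified against total RNA. Igfbp4 (1437405_a_at) was at 0 in amplified against total RNA without both newly transcribed arrays. Leaving out 1 array gave, in newly transcribed against amplified RNA, -0.167 to 0.22 for Igf1 (1437401_at), -1.113 to 0.127 for Igf1r (1426565_at), -0.085 to 1.009 for Igfbp6 and -1.115 to 0.174 for Igfbp7 (1423585_at). For Igfbp4 it gave -1.593 to 0.372 (1421991_a_at), -1.025 to 0.522 (1421992_a_at), -1.148 to 0.427 (1423756_s_at) and -1.437 to 0.626 (1423757_x_at). In amplified against total RNA it gave -0.059 to 0.048 for Igfbp4 (1437405_a_at), -0.03 to 0.074 (1437406_x_at) and -0.108 to 0.141 for Igfbp6, and for the interaction -0.452 to 0.159 for Igf1 (1452014_a_at) and -0.3 to 0.036 for Igf1r (1452108_at). The cause was not tested. Without a detection call, signal over background is unknown for the dim probe sets. Among them are those of Igfbp2 and Igfbp6, Igfbp7 (1437804_at), Igf1 (1419519_at and 1452014_a_at) and Igf1r (1452108_at). The same holds for Igfbp4 (1421991_a_at) in amplified and newly transcribed RNA.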
